A study of Mus musculus with 9 samples.

Results

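The regions described here held reproducible DPPA4 peaks in 3T3 fibroblasts and were not reproducible regions of E14 or P19 cells. Each line had 2 chromatin immunoprecipitation sequencing (ChIP-seq) libraries, and its reproducible regions were formed by joining those peaks of one library that overlapped a peak of the other by at least 1 bp. Overlapping reproducible regions from the 3 lines were then joined into merged regions, and those holding a 3T3 region and no E14 or P19 region were kept. These numbered 1992 of 45616 merged regions, and 1992 of the 11178 reproducible regions of 3T3, or 17.8% (Wilson 95% interval 17.1 to 18.5). The members were thus chosen by the presence of overlapping peaks in the 3T3 lists and their absence in the E14 and P19 lists, and their number is a description. It rests on both 3T3 libraries, since without 3T3 replicate 1 the count was 4362 and without 3T3 replicate 2 it was 3543. It also rests on the length of the lists, since the count was 5991 when each list was cut to the 15462 peaks with the highest scores.

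The 3T3 cells are mouse fibroblasts that carried Dppa4 ectopically. E14 cells are mouse embryonic stem cells grown without feeders in 2i medium with serum, and P19 cells are mouse embryonal carcinoma cells. Each line gave 2 libraries made with the same DPPA4 antibody, and the labels do not say whether these are separate cultures. The spread between replicates may therefore be technical. The sources used here do not give the construct and promoter behind the ectopic Dppa4, its amount, or whether the cells were 1 clone. The 3 input libraries were not analysed here, and the samples include no ChIP of fibroblasts without Dppa4. Peaks of 3T3 that do not depend on DPPA4 can therefore not be told apart. The lists hold no expression values, so the cell types could not be checked against markers. The lists held 15462 and 17540 peaks in 3T3, 61693 and 43443 in E14, and 40011 and 51196 in P19. Read depth is unknown, and a region without a peak may be unbound or below detection.

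DPPA4 (developmental pluripotency associated 4) is a nuclear protein with a DNA-binding SAP domain. It pairs with its relative DPPA2, and both are known from pluripotent cells, the early embryo and germ cells, where they occupy chromatin at many gene promoters and take part in the expression of early embryonic genes. Fibroblasts normally do not express it. A region of 3T3 alone is therefore a place where DPPA4 peaks were called in a cell that does not normally hold the protein, and not reproducibly in the pluripotent lines. Coordinates are those of the mm9 assembly, and no region was assigned to a gene, since no annotation of that assembly was used here.

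Most regions of 3T3 alone held a single peak of each 3T3 library, of low to middle score. Their median width was 839.5 bp, with a range of 289 to 3373 bp, against 1090 bp for the 9186 3T3 regions that overlapped an E14 or P19 region. Regions of E14 alone and P19 alone were narrower than the members, with medians of 676.5 and 515 bp, in lists of other peak widths. Together the members covered 1.79 Mb. The deposited peak score, whose scale the files do not name, is compared here only within a list. In 3T3 replicate 1 the members scored from 50.1 to 763, with a median of 84.1, against 153 for the shared 3T3 regions. In 3T3 replicate 2 they scored from 50.04 to 1277, with a median of 155.02, against 319 for the shared ones. Members thus lay lower than shared regions in both libraries, while their ranges overlapped widely. Scores under 100 in both libraries were held by 472 members (23.7%). Scores of at least 200 in both were held by 152 members (7.63%), against 3523 shared regions (38.4%).

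With the lists as deposited, the strongest 3T3 sites were rarely members. Scores were turned into percentile ranks within each list (100 for the strongest peak), and each region took its best-ranked peak. Of all 3T3 regions, 13.5% lay above the 90th percentile of replicate 1 and 15.7% above that of replicate 2. Among members these were 17 regions (0.853%) and 23 regions (1.15%). Above it in both libraries were 11 members (0.552%), against 11.2% of all 3T3 regions. By mean percentile over both lists, members made up between 29.9% and 34.3% of the 3T3 regions in each band of 10 up to the 50th percentile. They made up 16.6% between the 60th and 70th, 3.62% between the 80th and 90th, and 0.991% (15 of 1513 regions) above the 90th.

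**Figure D1:**
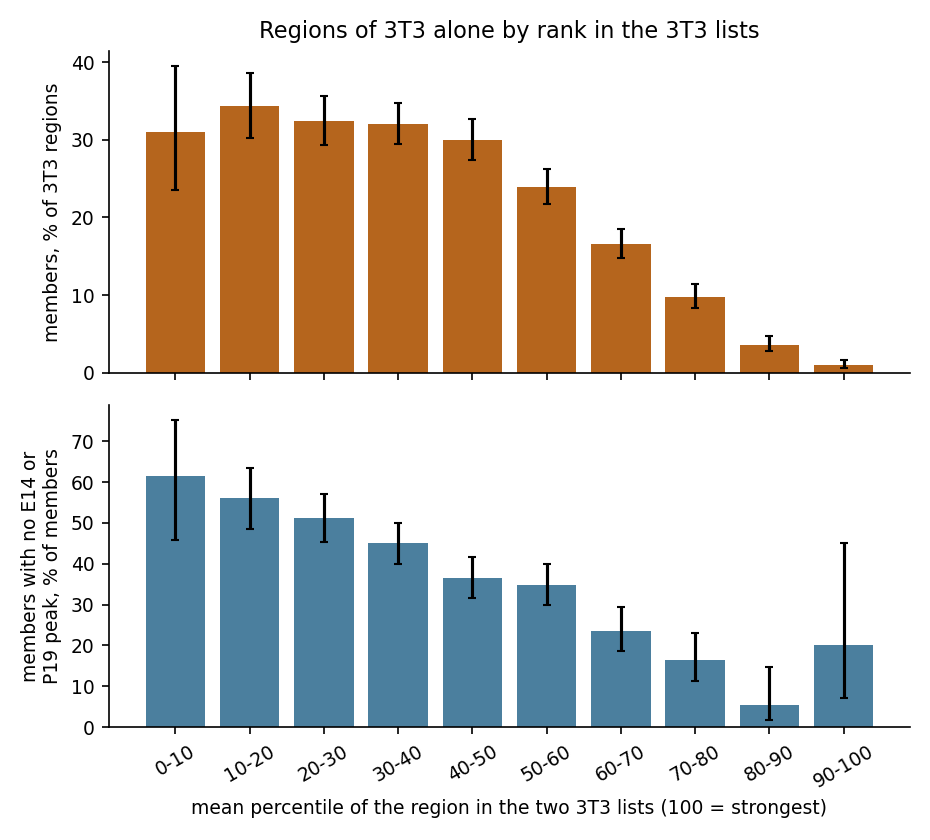
Upper panel: members as a percentage of all reproducible 3T3 regions, in bands of 10 of the mean percentile over both 3T3 lists. Lower panel: percentage of the members in each band that held no peak of any E14 or P19 library. Bars are shares and whiskers Wilson 95% intervals, which cover counting error only. The member share stays near 30% up to the 50th percentile and ends at 0.991%, and the lower share moves from 61.5% in the lowest band to 5.36% between 80 and 90, with a wide interval in the top band of 15 members.

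Overlap of the peaks of both 3T3 libraries was required of every member, so their closeness is a description. A single peak in each library made up 1822 members, and 168 members held more than 1 peak of replicate 1, at most 4. In these single-peak members the median peak width was 348 bp in replicate 1 and 812 bp in replicate 2. The replicate 1 peak lay wholly inside the replicate 2 peak in 1603 of them (88.0%), and the midpoints were a median of 77.5 bp apart. The overlap was at least 4 bp, and it was under 50% of the shorter peak in 8 members. The Spearman correlation of the scores of the 2 libraries was 0.53 across the 1992 members and 0.84 across the 9186 shared 3T3 regions. Members spanned a narrower range of scores, and regions are not independent replicates, so these are descriptions.

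**Figure D2:**
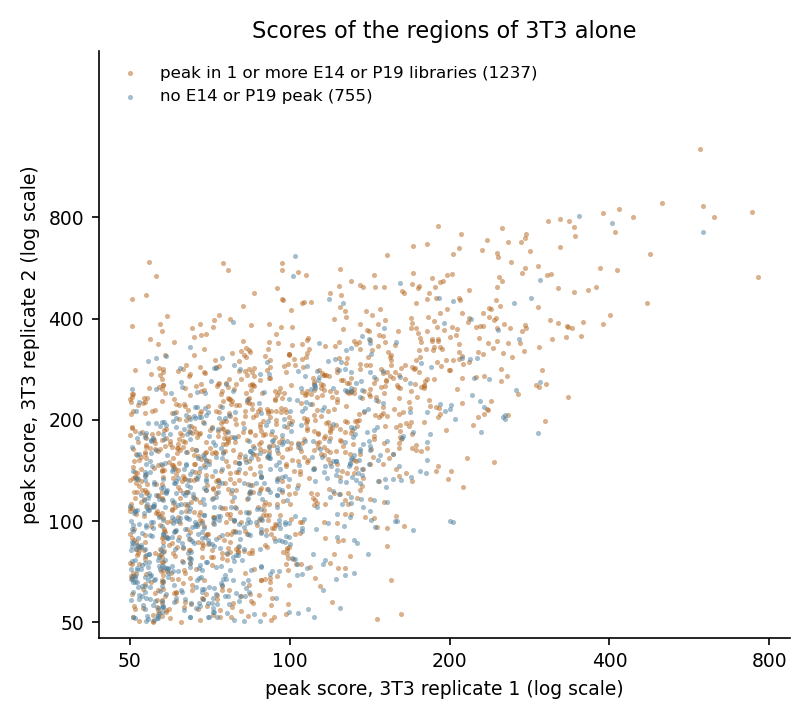
Peak scores of the 1992 members in 3T3 replicate 1 (x axis) and 3T3 replicate 2 (y axis), both on log scales. Each point is 1 region, coloured by whether any E14 or P19 library had a peak in it (1237 regions) or none had (755 regions). Most points lie between 50 and 200 in replicate 1, and the few above 400 in both libraries are mostly regions with a peak of another line.

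The 10 members with the highest mean percentile lay on 7 chromosomes. Highest of all was a region of chromosome 2 between 71366480 and 71368530, which scored 593 and 1277 in the 3T3 libraries. Peaks of 1 library of each other line lay in it too, scoring 86.95 (E14 replicate 2) and 78.3 (P19 replicate 2). The second, on chromosome 17 from 13743094 to 13746466, was also the widest member, scored 740 and 827 in 3T3, and held an E14 replicate 1 peak that scored 54.3. The third, on chromosome 16 between 22438359 and 22440574, reached 600 and 862 in 3T3. It lay 107911 bp from the nearest reproducible E14 or P19 region but held single peaks of 62.3 (E14 replicate 2) and 81.9 (P19 replicate 2). The E14 and P19 peaks in these regions stood at or below percentile 33.3 of their own lists.

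The fourth, on chromosome 19 from 10943682 to 10944620, scored 628 and 802 in 3T3, with single peaks of 119 (E14 replicate 2) and 136.13 (P19 replicate 1). The fifth, on chromosome 4 from 115893261 to 115894493, scored 502 and 884 in 3T3, with 1 other peak of 86.7 (E14 replicate 1). The seventh, on chromosome 17 between 34255298 and 34257702, reached 444 and 800 in 3T3. Single peaks in it scored 145 in E14 replicate 2 and 55.05 in P19 replicate 1, and another member stood 43 bp away. The eighth, on chromosome 4 from 125879306 to 125880316, scored 416 and 848 in 3T3, with single peaks of 91.4 (E14 replicate 1) and 109 (P19 replicate 1). The ninth, on chromosome 13 from 40825128 to 40827478, scored 388 and 824 in 3T3, with single peaks of 62.9 (E14 replicate 2) and 178 (P19 replicate 2). In these 10 regions, 8 held a peak of at least 1 E14 or P19 library.

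The sixth and the tenth held none. The sixth lay on chromosome 8 from 27126975 to 27127380, scored 601 and 724 in 3T3 and was only 406 bp wide. It lay 725 bp from the nearest E14 region and 688 bp from a region of all 3 lines. The tenth lay on chromosome 8 from 127715175 to 127716654, scored 405 and 770 in 3T3, and lay 3605 bp from the nearest peak of another line. Next among members without any E14 or P19 peak came a region of chromosome 17 between 34986760 and 34988006, scoring 351 and 805. It was followed by one between 32457373 and 32458727 of the same chromosome, scoring 295 and 522, and one of chromosome 4 between 116229496 and 116230859, scoring 285 and 459. The last was the most isolated of the 5, 43696 bp from any E14 or P19 peak. After the second, the widest members were a region of chromosome 11 between 74643279 and 74646180, scoring 104 and 551, and one of chromosome 13 between 74665776 and 74668450, scoring 102 and 613. Both ranked near the middle of the replicate 1 list and above the 85th percentile of the replicate 2 list.

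Of the regions of 3T3 alone, 1237 or 62.1% held a peak of some E14 or P19 library as the lists stand. Such peaks are unreplicated by the rule, which removes a region once both libraries of a line give overlapping peaks in it. No peak of the 4 E14 and P19 libraries lay in 755 members (37.9%, interval 35.8 to 40.1), 1 library gave one in 766 (38.5%), and 2 libraries in 443 (22.2%). With lists of equal length the share without such a peak was 73.9%, so that members with a peak of another line were then the minority. It was 69.8% when libraries were matched by replicate number (the replicate block), which looks only at the libraries of the other number. With 1 library left out it was 51.2% to 66.9%. Without an E14 or P19 library no member can hold a peak of that line, since every remaining peak counts as a region. Those shares and that of the replicate block are thus not like for like with 37.9%. Peaks of 3 libraries lay in 27 members and of all 4 in 1. Over the regions of any single line, 43.9% had no peak in the libraries of the other lines. Those shares were 45.9% for regions of E14 alone and 42.8% for regions of P19 alone, each set against lists of another length. E14 peaks without P19 peaks lay in 500 members, P19 peaks without E14 peaks in 274, and peaks of both lines in 463.

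The libraries contributed unequally. An E14 replicate 1 peak lay in 421 members (21.1%), against 37.6% of all merged regions outside the E14 set. An E14 replicate 2 peak lay in 560 members (28.1%), against 17.4% of those regions. A P19 replicate 1 peak lay in 213 members (10.7%), against 9.79% of all merged regions outside the P19 set, and a P19 replicate 2 peak in 543 (27.3%), against 43.1%. These wider sets include the members and are mostly regions of 1 other line. Regions of P19 alone were 6234 of the 8727 outside the E14 set, and regions of E14 alone 10040 of the 13524 outside the P19 set. E14 replicate 2 held fewer peaks than E14 replicate 1, and its peaks were wider, at a median of 772 and 411 bp, covering 37.8 and 31.2 Mb. The part of width and list length in these shares was not tested. Of the E14 and P19 peaks in members, between 88.3% and 96.3% per library overlapped a 3T3 replicate 1 peak, and 100% overlapped a peak of 3T3 replicate 2, whose peaks were wider.

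**Figure D3:**
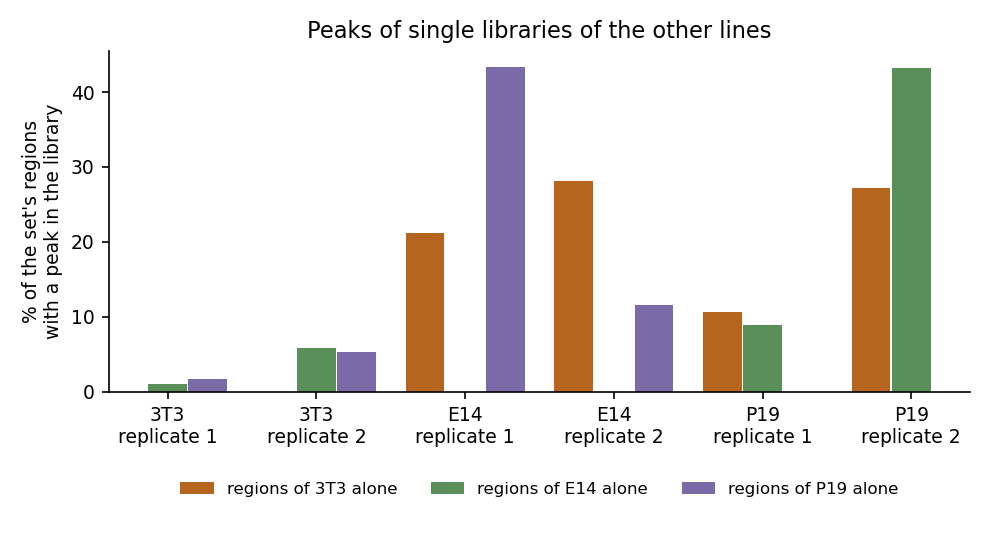
Percentage of the regions of 3T3 alone (brown), E14 alone (green) and P19 alone (purple) that held a peak of each single library of the other lines. The bars are shares of 1992, 10040 and 6234 regions; a line's own libraries have no bar. Regions of 3T3 alone held E14 replicate 2 peaks more often than E14 replicate 1 peaks (28.1% and 21.1%), while regions of P19 alone show the other order (11.6% and 43.4%).

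Peaks of the other lines in members ranked low in their own lists. Such peaks are unreplicated by the rule, and the ranks of unreplicated E14 and P19 peaks elsewhere were not taken. The low ranks are therefore a description and cannot be called particular to members. Their median percentile was 28.8 in E14 replicate 1, 24.4 in E14 replicate 2, 18.3 in P19 replicate 1 and 23.2 in P19 replicate 2. A rank at or above the 50th percentile was reached in 85 members for E14 replicate 1, 46 for E14 replicate 2, 8 for P19 replicate 1 and 54 for P19 replicate 2. The highest was an E14 replicate 1 peak on chromosome 8 in the member from 125565000 to 125565912, which scored 510 there (85.2nd percentile). That member scored 76.5 and 172 in 3T3, had no E14 replicate 2 peak and scored 63.6 in P19 replicate 2. The single member with peaks of all 4 other libraries was found on chromosome 2 between 103636382 and 103638049, and its peaks scored 198 and 539 in 3T3, 110 and 51.7 in E14, and 79.3 and 95.5 in P19. Within each of those lines the 2 peaks did not overlap. These 2 regions were chosen after their values were seen.

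Members with more support in other lines were stronger in 3T3. In 3T3 replicate 1 the median percentile was 34.5 for members without a peak of another line, 42.6 for those with a peak of 1 library and 47.96 for those with peaks of 2. In 3T3 replicate 2 the medians were 41.5, 52.5 and 60.1. Widths followed the same order, with medians of 765, 857.5 and 938 bp, and a wider region can hold more peaks. The share without any peak of another line was 61.5% (24 of 39) in the lowest band of mean percentile, 36.4% (129 of 354) between the 40th and 50th, and 5.36% (3 of 56) between the 80th and 90th. Above the 90th it was 3 of 15 members, with an interval of 7.05% to 45.2%.

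Isolated and strong members were few. Of the 755 members without any peak of another line, 234 (31.0%) lay more than 10000 bp from every E14 and P19 peak. Of these, 9 scored at least 200 in both 3T3 libraries, a set chosen after the values were seen. The highest ranked was the chromosome 4 region that starts at 116229496, already described. Next came a region of chromosome 8 between 72177964 and 72178904, scoring 219 and 398, and one of chromosome 10 between 43621072 and 43621834, scoring 296 and 259. Another on chromosome 4, from 57794837 to 57795616, scored 222 and 266 and lay 83494 bp from any peak of another line. In the 9, scores ran from 201 to 296 in replicate 1 and from 201 to 459 in replicate 2.

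Members overlap no reproducible E14 or P19 region by the rule, and their distance to the nearest one varied widely. The median distance to the nearest reproducible E14 or P19 region was 8886 bp (quartiles 2559 and 25803), and the farthest member, on chromosome 1 from 77510290 to 77511983, was 267952 bp away. Within 100 bp lay 56 members (2.81%), within 1000 bp 297 (14.9%), and within 10000 bp 1047 (52.6%). More than 100 kb away lay 63 members (3.16%), of which 14 were on the X chromosome. The X chromosome held 2.86% of all members, and the part of region density in this count was not tested. The nearest inside the overlap limit lay on chromosome 10 from 39861988 to 39862331, adjoined an E14 region with 0 bp between them, and scored 63.1 and 121 in 3T3. The next 2 lay 5 bp and 12 bp away, on chromosome 4 between 43454933 and 43455648, with scores of 158 and 100.42, and on chromosome 8 between 73030086 and 73031115, with scores of 80.5 and 282.5. Just outside the limit, 3T3 regions on chromosome 6 (114504292 to 114505002), chromosome 4 (63071050 to 63071896) and chromosome 16 (28929829 to 28930501) overlapped an E14 or P19 region by 1, 3 and 9 bp. Their 3T3 scores were 84.2 and 58.7, 271 and 354, and 89.45 and 143. Few regions stood near the limit on that side, since 24 shared 3T3 regions overlapped by under 100 bp and the median overlap was 89.4% of the 3T3 region.

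To the 7042 regions held by all 3 lines, members lay closer than the other single-line sets. The median distance was 44075 bp for regions of 3T3 alone, 72267 bp for regions of E14 alone and 52274 bp for regions of P19 alone. Within 1000 bp lay 6.48% (interval 5.48 to 7.64) of the regions of 3T3 alone, 1.38% (1.17 to 1.63) of those of E14 alone and 4.03% (3.57 to 4.54) of those of P19 alone. Within 10000 bp the shares were 20.8%, 11.3% and 17.5%. Each line gives 1 such set, so the difference was not tested over libraries. The yardstick is not neutral, since it can hold no more regions than the smallest set, that of 3T3. On the autosomes 3T3 had 10945 regions, E14 35811 and P19 31688. Distances ran from edge to edge, and members were wider, at a median of 839.5 bp against 676.5 bp (E14 alone) and 515 bp (P19 alone). The part of these differences in the distances was not tested.

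**Figure D4:**
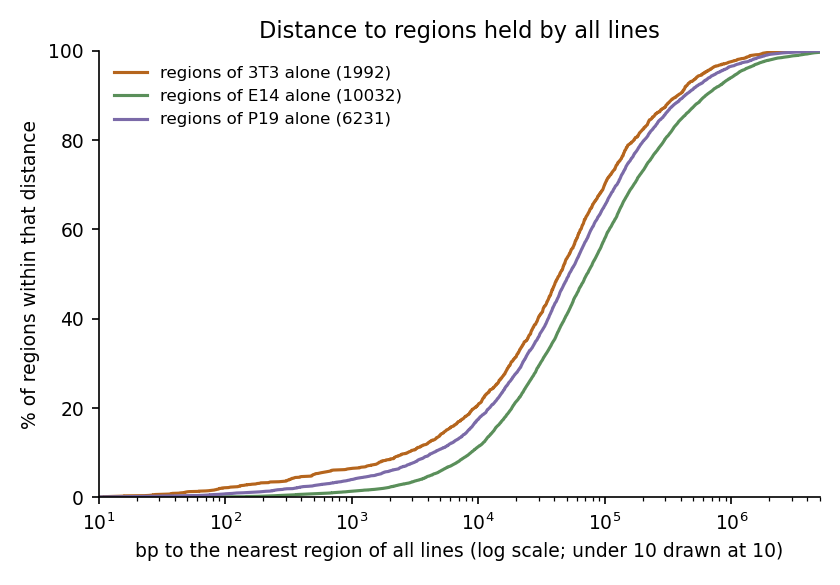
Cumulative percentage of regions of 3T3 alone, E14 alone and P19 alone (y axis) within a given distance in bp (x axis, log scale) of the nearest region held by all 3 lines. Numbers in the legend are regions with such a region on their chromosome. The curves have medians of 44075, 72267 and 52274 bp, in the order named.

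The rank of the members in their own lists was set beside that of the other single-line sets, in lists of unequal length. The median percentile of regions of 3T3 alone was 40.9 and 50.3 in the 3T3 libraries, a mean of 45.6 ± 6.65 (SD, n = 2). Regions of E14 alone and P19 alone had medians of 47.9 and 30.3 in E14 and 32.5 and 43.5 in P19, a mean of 38.6 ± 8.49 (SD, n = 4). The ranges overlapped, and the difference of 6.99 was not past the threshold (exact two-sided permutation test over libraries, p = 0.533, where 2 against 4 libraries cannot give less than 0.133). Both libraries of a line define the same set of regions, which was selected by peaks in the lists that rank it. The medians of a line are therefore not independent. Neither the SDs nor the p-values measure a spread between independent replicates. Without 3T3 replicate 1 the difference was -4.82 and without 3T3 replicate 2 it was -7.70. In those settings every peak of the remaining 3T3 library counts as a region, while E14 and P19 regions still need both libraries. Those differences are thus not like for like with 6.99, and nothing is drawn from their direction. With every list at 15462 peaks the difference was 21.4 and the exact two-sided permutation p was 0.133, the smallest possible, so the result depends on list length.

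Every autosome and the X chromosome held members, and the X chromosome stood apart. Of its 158 3T3 regions 57 were members, or 36.1% (interval 29.0 to 43.8), against 1933 of 10945 on the autosomes, or 17.7% (17.0 to 18.4). The X chromosome thus held few 3T3 regions, of which a large share was 3T3 alone. With lists of equal length the shares were 70.3% on the X chromosome and 55.5% on the autosomes, a smaller contrast in proportion. The autosomes ranged from 12.2% on chromosome 14 and 12.5% on chromosome 16 to 23.4% (20.1 to 27.1) on chromosome 15. Chromosome 11 held the most members, 182, or 19.1% of its 3T3 regions, and 1.49 members per Mb against 0.342 per Mb on the X chromosome. Chromosome Y held none, with 1 3T3 region in all, and 2 members lay on unplaced contigs.

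**Figure D5:**
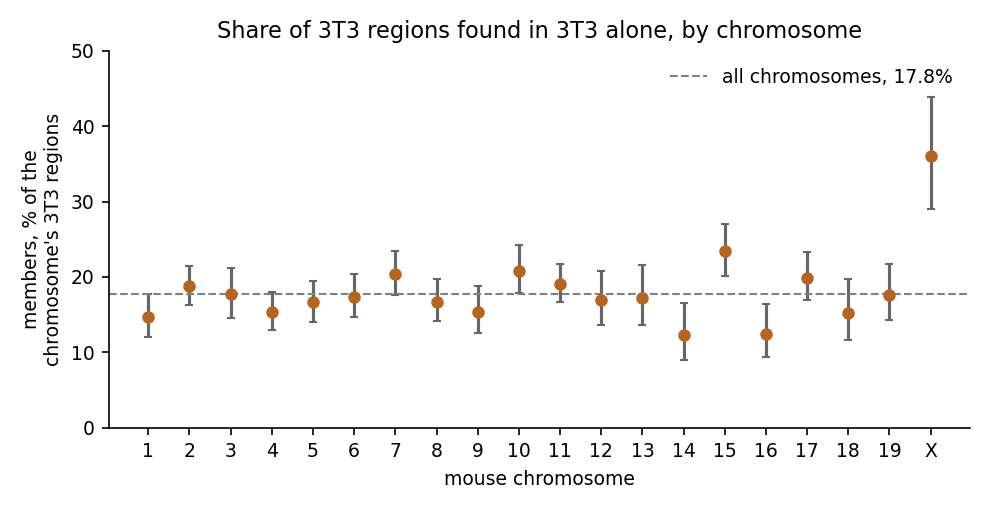
Members as a percentage of the reproducible 3T3 regions of each mouse chromosome (points) with Wilson 95% intervals for counting error. The dashed line marks 17.8%, the share over all chromosomes. The X chromosome lies at 36.1%, while the autosomes lie between 12.2% and 23.4%.

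In the other lines the share on the X chromosome was below that on the autosomes. Of the E14 regions, 23.2% on the X chromosome and 26.9% on the autosomes were E14 alone, and of the P19 regions 12.1% and 19.2% were P19 alone. The share was also taken for single libraries, as the peaks without a peak in the libraries of the same number of the other lines. It uses the same lists and the same presence or absence of peaks as the rule, and was chosen after the X share was seen, so it is a description by library with no test. In 3T3 such peaks were 30.6% of the X peaks and 20.0% of the autosomal peaks in replicate 1, and 24.5% and 16.2% in replicate 2. The ratio of the X share to the autosomal share was 1.53 and 1.51 in the 3T3 libraries, against 0.80 and 0.70 in the E14 libraries and 0.66 and 0.68 in the P19 libraries. X members ranked below autosomal ones in 3T3 replicate 1, with median percentiles of 34.6 and 41.2, and near them in replicate 2, with 49.4 and 50.3. No peak of another line lay in 28 of the 57 X members (49.1%, interval 36.6 to 61.7) and in 37.6% of the autosomal members. The number of X chromosomes per line was not measured.

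Along the chromosomes the members were mostly scattered. Of the 2036 1-Mb bins with a 3T3 region, 970 held a member and 522 of these held a single one. At least 5 members lay in 76 bins, which held 526 members (26.4%). The bins with the most members were 79 to 80 Mb and 80 to 81 Mb of chromosome 10, with 21 and 15, in a stretch dense in regions of every kind. There the members made up 25.9% and 22.1% of the 3T3 regions. Next came 73 to 74 Mb of chromosome 8 with 13 members (29.5%), 52 to 53 Mb of chromosome 7 with 12 (37.5%), and 34 to 35 Mb of chromosome 17 with 11 of 30 (36.7%). A bin at 102 to 103 Mb of chromosome 15 also held 11, out of 23 3T3 regions.

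In order along the chromosomes, 1624 members had regions of another kind on both sides. Pairs of neighbouring members with no other merged region between them numbered 145, and runs of 3 numbered 21. There were 2 runs of 4 and 1 run of 5. One run of 4 lay on chromosome 2 from 71226829 to 71379890 and contained the highest-ranked member, and the other on the X chromosome from 45694601 to 45866915. The run of 5 lay on chromosome 13 from 21845262 to 21903055, with 3T3 scores from 56.6 to 145 in replicate 1 and from 119 to 284 in replicate 2.

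That run lies in a stretch of chromosome 13 known to carry the largest cluster of replication-dependent histone genes of the mouse, the genes that supply histones for packaging newly copied DNA. The stretch, 21 to 24 Mb, was chosen after the values were seen and is named from general knowledge, and no member was assigned to a histone gene. It held 27 3T3 regions, of which 18 were members (66.7%, interval 47.8 to 81.4). Between 23 and 24 Mb, 9 of 10 3T3 regions were members, the highest share among the 447 bins with at least 8 3T3 regions. Between 21 and 22 Mb it was 8 of 13, and between 22 and 23 Mb 1 of 4. The stretch also held 29 E14 regions and 25 P19 regions, 4 of them shared by all lines, so the other lines had regions there at other positions.

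The members of that stretch scored below the members as a whole in 3T3 replicate 1 and near them in 3T3 replicate 2. Their scores ran from 50.9 to 159 in replicate 1, with a median of 70.6 against 84.1 for all members. In replicate 2 they ran from 60.45 to 284, with a median of 160.5 against 155.02. Of the 18, 15 held a peak of another line, with an E14 replicate 1 peak in 5, an E14 replicate 2 peak in 8, a P19 replicate 1 peak in 1 and a P19 replicate 2 peak in 5. Over all members, 62.1% held a peak of another line. By library the shares of all members were 21.1% and 28.1% for E14 replicates 1 and 2, and 10.7% and 27.3% for P19 replicates 1 and 2. The strongest E14 or P19 peak in the 18 scored 121, in E14 replicate 1, in the member from 21807489 to 21808088, which scored 57.9 and 93.7 in 3T3. The member with the highest replicate 2 score lay from 21878622 to 21879996 and scored 57.75 and 284 in 3T3. Each E14 library had a peak in it, scoring 71.96 and 74.8 and not overlapping, and P19 replicate 2 had one of 54.7. As a share of the list, the stretch took 0.20% and 0.296% of the 3T3 peaks, against 0.0892% and 0.104% of the E14 peaks and 0.08% and 0.0938% of the P19 peaks. Near 96 Mb of chromosome 3, where a smaller histone gene cluster lies, 8 of 25 3T3 regions of the bin from 96 to 97 Mb were members (32.0%, interval 17.2 to 51.6), with an interval that includes 17.8%. In the chromosome 6 bin known for another small cluster there were 3 3T3 regions and 0 members.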

How the data were processed

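DPPA4 ChIP-seq of 3T3, E14 and P19 cells was analysed from the 6 deposited peak lists, which give the position, name and peak score of each peak. There is 1 deposited list per library, and the deposited score is of unnamed scale, at least 50 in every list. Per the submitters' processing notes, the tools were BWA 0.7.13-r1126, SAMtools 1.3, CASAVA 1.8 and bcl2fastq 1.8, and the build was mm9. Peak names begin with MACS, per the files, and the sources used here do not give its version, threshold or control. Read depth is unknown, so Wilson 95% intervals cover only the counting of peaks, treated as independent.

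Samples were grouped by line and replicate number in the titles. Regions were built as stated in the report, and positions are printed 1-based. Regions named in the text were the 10 with the highest mean percentile in the 3T3 libraries, the 5 highest without an E14 or P19 peak, the 3 widest, the 3 nearest on each side of the overlap limit, and the 5 fullest 1-Mb bins. Others are said to be chosen after their values were seen. Libraries were compared with exact permutation tests. The members, comparisons and rules were chosen with earlier results of these data known. Alternatives were a 50% overlap, the best-scoring 50% of each list, lists of 15462 peaks, 500 bp peaks, autosomes, members over 1000 bp from other regions, any E14 or P19 peak counting, leaving out each library and a replicate block. The promoter shares and 2 gene lists planned for an mm9 annotation were not run, since the gene table at hand belongs to GRCm38, another build. The overlap code was tested on simulated data. The work used SciPy 1.17.1, pandas 2.3.3, NumPy 2.4.6 and Matplotlib 3.10.9 under Python 3.11.15.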

Additional observations from a re-analysis of the deposited data

How the results depend on the processing

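The number of members was 1992 and stayed within 1.5 times of it with a 50% overlap (2059), 500 bp peaks (2098), autosomes (1933), members over 1000 bp from other regions (1695) and the best-scoring 50% of each list (1828). These counts do not always name the same regions, since 1983 of the 1992 members overlapped a member with the 50% overlap but 553 with the best-scoring 50%. It was 5991 with lists of 15462 peaks, of which 31.3% overlapped a member, 755 when any E14 or P19 peak counted, and 2989.5 on average with the replicate block (3102 and 2877 peaks). Leaving out a library gave 1436 to 4362. The share of 3T3 regions was 17.8%, against 28.7% with the best-scoring 50%, 55.5% with equal lists, 18.96% with 500 bp peaks, 15.2% with members over 1000 bp away, 6.75% when any peak counted, and 12.8% to 24.9% with a library left out. The share of members without a peak of another line was 37.9%, against 49.0% with the best-scoring 50%, 73.9% with equal lists, 69.8% with the replicate block and 51.2% to 66.9% with a library left out. Leaving out a library lets every peak of the remaining one count as a region of its line. Without an E14 or P19 library, no member can therefore hold a peak of that line. The replicate block looks only at the libraries of the other number. Those shares are thus not like for like with 37.9%, and the cause of the other higher shares was not tested. The difference in median percentile from the other single-line sets was -7.70 without 3T3 replicate 2 and -4.82 without 3T3 replicate 1. These 2 differences are not like for like either, since every peak of the remaining 3T3 library counts as a region. With an E14 or P19 library left out the difference was 9.71 to 12.6, and with all libraries it was 4.93 to 21.4. Exact permutation p ran from 0.133 to 0.667 in the settings that kept both 3T3 libraries. The share of X regions that were members stayed above the autosomal share in every setting in which both were computed. The smallest X share, 25.9% against 12.7%, came without E14 replicate 1, and the largest, 70.3% against 55.5%, with equal lists. In proportion the contrast was smaller with equal lists than with the lists as deposited. That also held without 3T3 replicate 1 (33.8% against 24.7%) and without 3T3 replicate 2 (31.1% against 22.8%). The labels give the replicate numbers no shared origin. Rank deviations of same-numbered libraries correlated by 0.027 to 0.054 over 7042 regions, and libraries were compared without pairing. Ranks within a list cannot show a shared effect on peak width or list length, so a common origin remains unknown. Replicate 1 peaks were narrower than replicate 2 peaks in every line. Their median widths were 400 and 872 bp in 3T3, 411 and 772 bp in E14, and 453 and 540 bp in P19.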
